A study of Ovis aries with 91 samples.

Results

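The 4 genes described here, ENSOARG00000007684, ENSOARG00000010539, ENSOARG00000000476 and ENSOARG00000013633, fell strongly in left atrial appendage whole tissue of sheep with atrial fibrillation. For ENSOARG00000010539 this held in the chronic state, with a smaller transition difference of −0.72. The 4 genes led the decreases only among genes with a mean level above the median, an adjusted p under 0.05 and no overlap with control. They are 4 of the 13803 gene identifiers measured in the sheep atria. They were chosen by their log2 differences from control in left appendage whole tissue, ENSOARG00000000476 and ENSOARG00000013633 in the transition state and ENSOARG00000007684 and ENSOARG00000010539 in the chronic state. The values of that tissue are therefore given as a description without a test, and tests are given only for the right appendage, the isolated cardiomyocytes and the posterior left atrium. All 4 were listed in all 3 tables and passed the filter on low values in each. The identifiers carry no gene symbol in the sources used here, so the genes are given by identifier, with no name or function.

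Atrial fibrillation is a fast and irregular atrial rhythm that tends to sustain itself as the atria remodel electrically and structurally. Rapid pacing of the atria is a way to bring it about in large animals, in which an early stage can be set apart from established fibrillation. The appendages are the muscular pouches of both atria, the posterior left atrium is the wall around the openings of the pulmonary veins, and cardiomyocytes are the contracting muscle cells that share the tissue with fibroblasts, vessels, nerves and immune cells.

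RNA was sequenced from 18 sheep, in 91 GEO samples that include technical replicates and that the authors merged into 1 value per sheep and region. A tachypacing device in the right atrium was used to induce fibrillation. Control sheep of the appendages were the sham animals S3 and S4 together with C1, which is labelled as control and is called sham in the column names; the other states were labelled transition and chronic, with no duration given in the sources used here. Whole tissue of the left and right appendages came from control sheep C1, S3 and S4, transition sheep D24, D27 and D30, and chronic sheep D15, D16 and D19. Isolated cardiomyocytes of both appendages came from control sheep C1, S3 and S4, transition sheep D23, D24 and D27, and chronic sheep D16, D19 and D20. The posterior left atrium was sampled in 6 transition and 6 control sheep; a chronic group of this region was not analysed here. Of these, transition sheep D24 and D27 and control sheep C1, S3 and S4 also gave appendage samples. Transition sheep G5, G13, G26 and G34, titled saline, and sham control sheep G21, G32 and G36, titled control, gave none. Among the sheep with G numbers these titles follow the states, so title and state cannot be told apart. Whole tissue and cardiomyocytes came from 9 sheep each, of which 7 gave both, so all right appendage tissue samples and most cardiomyocyte samples came from the animals on which the genes were chosen.

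Values in the appendages are log2 CPM, the log2 of the reads of a gene scaled to a library of fixed size, and in the posterior left atrium log2 values of unrecorded further processing. Whole tissue libraries held from 6241970 to 22382500 reads and cardiomyocyte libraries from 5305520 to 12434400, as recovered from the values. The lowest of the 4 genes in any appendage library was still read 46 times, and the highest 12617 times. Without gene symbols neither the labelled region nor the purity of the cardiomyocytes could be checked against marker genes. In whole tissue and in isolated cells alike, fewer cells of a type and less RNA per cell cannot be told apart.

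In left appendage whole tissue all 4 genes were lower in every transition sheep and every chronic sheep than in every control sheep. This separation entered the choice of the genes, so nothing is read from it; of the 12333 genes tested, 12.1% had every transition value below every control value and 13.6% had every chronic value below every control value. The transition and chronic sheep overlapped for ENSOARG00000000476 and ENSOARG00000013633, whereas ENSOARG00000007684 and ENSOARG00000010539 were lower in every chronic sheep than in every transition sheep. The first pair was chosen on the transition difference and the second on the chronic one, so nothing is read from this either.

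ENSOARG00000000476 had the largest difference of the 4 in the transition state. Its level in left appendage tissue was 7.0, 7.06 and 6.71 log2 CPM in control sheep C1, S3 and S4, 4.21, 4.51 and 4.83 in transition sheep D24, D27 and D30, and 5.54, 4.05 and 5.17 in chronic sheep D15, D16 and D19. The control sheep, with an SD of 0.19 (n = 3), lay close together and far above the rest, and the transition and chronic sheep overlapped. The fitted log2 difference from control was −2.41 with a standard error of 0.36 in the transition state, a level 5.30-fold lower, and −2.0 in the chronic state.

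ENSOARG00000013633 stood next in the transition state. It was at 9.74, 9.96 and 8.96 log2 CPM in control sheep C1, S3 and S4, at 8.03, 7.24 and 6.76 in transition sheep D24, D27 and D30, and at 8.25, 7.68 and 6.0 in chronic sheep D15, D16 and D19. The chronic sheep spread over more than the transition sheep and included the lowest value, that of D19. Relative to control its log2 difference was −2.21 with a standard error of 0.54 in the transition state and −2.24 in the chronic state.

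ENSOARG00000007684 had the largest difference of the 4 in the chronic state. It was at 5.38, 6.09 and 6.89 log2 CPM in control sheep C1, S3 and S4, at 4.41, 4.05 and 5.06 in transition sheep D24, D27 and D30, and at 3.84, 3.34 and 2.84 in chronic sheep D15, D16 and D19. The 3 states followed each other without overlap. Its log2 difference from control was −1.61 in the transition state and −2.78 with a standard error of 0.38 in the chronic state, a level 6.86-fold lower.

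ENSOARG00000010539 differed least in the transition state, where its log2 difference from control was −0.72. It was at 6.26, 5.45 and 6.01 log2 CPM in control sheep C1, S3 and S4, at 5.02, 5.20 and 5.33 in transition sheep D24, D27 and D30, and at 3.30, 3.25 and 3.80 in chronic sheep D15, D16 and D19. Transition sheep reached close to the lowest control sheep, S3, while the chronic sheep lay well below both. In the chronic state its log2 difference from control was −2.46 with a standard error of 0.32, a level 5.49-fold lower.

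The earlier choice kept genes with an adjusted p under 0.05, a mean level above the median and no overlap with control. By size of decrease among these genes, ENSOARG00000000476, ENSOARG00000013633 and ENSOARG00000007684 ranked 1, 2 and 3 of 39 in the transition state. The gene just outside, ENSOARG00000013739, had a log2 difference of −1.34 with a standard error of 0.30. ENSOARG00000010539 did not meet all of these conditions in the transition state. In the chronic state ENSOARG00000007684, ENSOARG00000010539, ENSOARG00000013633 and ENSOARG00000000476 ranked 1, 2, 3 and 4 of 202. A gene not among those ranked, ENSOARG00000001346, averaged 5.68 log2 CPM in control, 3.13 in transition and 3.31 in chronic left appendage tissue.

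**Figure D1:**
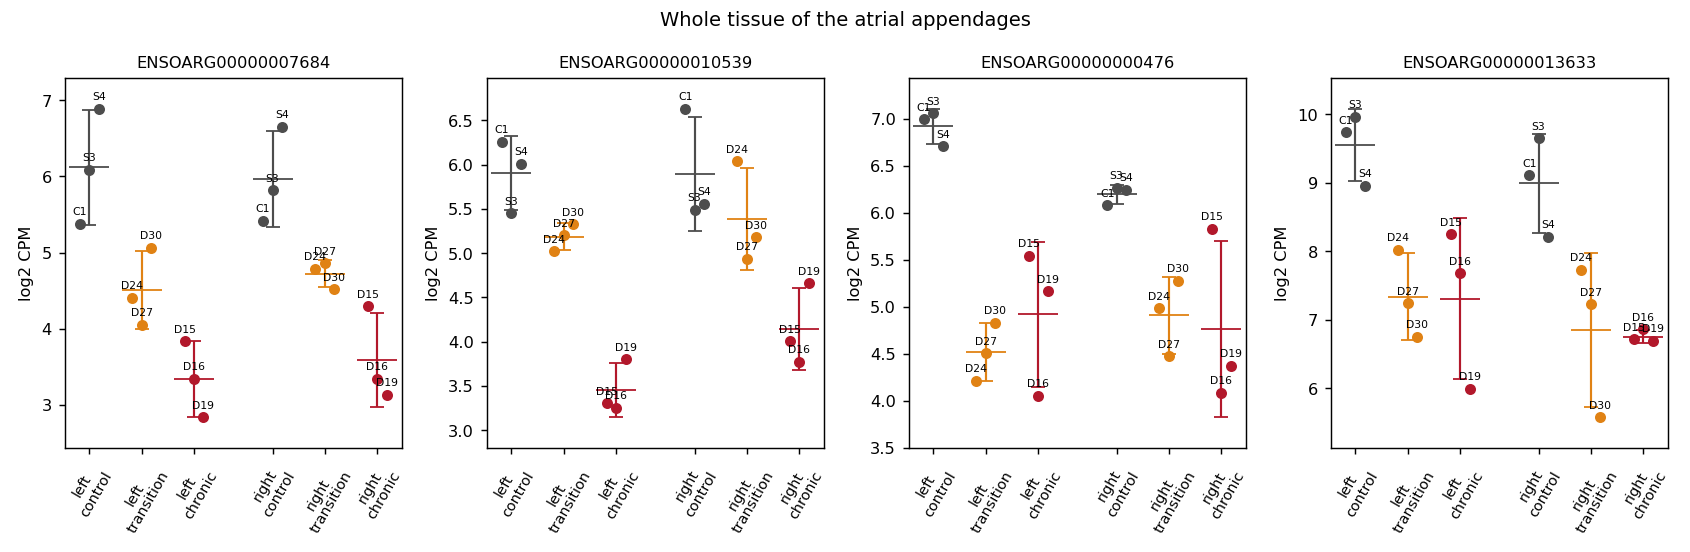
Whole tissue of the appendages, with the level of each gene in log2 CPM on the vertical axis and region and state on the horizontal axis; points are single sheep, named, and lines are the mean and SD of 3 sheep. On the left all transition and chronic points lie below all control points, by which the genes were chosen; on the right the same holds, as for 9.92% of all genes in the transition and 7.87% in the chronic state, except for ENSOARG00000010539 in the transition state, where sheep D24 at 6.04 lies above 2 control sheep.

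The right appendage differences of the same animals were not used to choose the genes. The mean level and the estimate of spread in the choice did include right appendage samples. The right appendage p-values are therefore not independent of the choice. In chronic sheep all 4 genes were lower in right appendage tissue in every animal than in any control animal, as were 7.87% of all genes tested. In transition sheep this held for 3 of the 4, without ENSOARG00000010539, and for 9.92% of all genes. In the chronic state 2 of the 4, ENSOARG00000007684 and ENSOARG00000010539, passed the test at an adjusted p under 0.05, where 0.308% of all genes were called lower. The median log2 difference of the 4 genes from control was −1.99 in the chronic state, against 0.01 for all genes tested. The chronic and transition comparisons share their control samples, and those controls are the sheep that gave the left appendage samples.

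ENSOARG00000007684 was at 5.42, 5.82 and 6.65 log2 CPM in right appendages of control sheep C1, S3 and S4, at 4.79, 4.86 and 4.52 in transition sheep D24, D27 and D30, and at 4.30, 3.35 and 3.13 in chronic sheep D15, D16 and D19. Again the states did not overlap. In chronic sheep it fell by 2.37 on the log2 scale relative to control (standard error 0.38, 95% interval −3.16 to −1.58, adjusted p = 0.00586 by limma with Benjamini-Hochberg adjustment), 5.18-fold lower. In transition sheep the difference was −1.24 (95% interval −2.03 to −0.45, adjusted p = 0.138), which did not pass, and with sample quality weights it was −1.34 (adjusted p = 0.0187), which did.

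ENSOARG00000010539 was at 6.63, 5.49 and 5.56 log2 CPM in right appendages of control sheep C1, S3 and S4, at 6.04, 4.94 and 5.18 in transition sheep D24, D27 and D30, and at 4.01, 3.77 and 4.66 in chronic sheep D15, D16 and D19. Chronic sheep lay below all others, and transition and control sheep overlapped, with C1 the highest control. In chronic sheep it fell by 1.75 relative to control (standard error 0.32, 95% interval −2.43 to −1.07, limma adjusted p = 0.0141), whereas the transition difference was −0.51 (95% interval −1.19 to 0.17, adjusted p = 0.480). The chronic call was lost without control sheep C1 (−1.38, adjusted p = 0.0818), without chronic sheep D16 (−1.56, adjusted p = 0.0813) and with the right appendage fitted on its own (adjusted p = 0.0969); over all alternatives its adjusted p ran from 0.0128 to 0.0969.

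ENSOARG00000000476 was at 6.08, 6.27 and 6.25 log2 CPM in right appendages of control sheep C1, S3 and S4, at 4.98, 4.47 and 5.28 in transition sheep D24, D27 and D30, and at 5.83, 4.08 and 4.37 in chronic sheep D15, D16 and D19. Control sheep lay close together above all others, and chronic sheep D15 came within reach of them. The log2 difference from control was −1.29 in transition sheep (95% interval −2.06 to −0.52, limma adjusted p = 0.112) and −1.44 in chronic sheep (95% interval −2.20 to −0.67, adjusted p = 0.0619). Neither passed the test. Without D15 both differences passed, at −1.97 in chronic sheep (adjusted p = 0.00252) and −1.29 in transition sheep (adjusted p = 0.0268). Both also passed with sample quality weights (adjusted p = 0.00177 and 0.00907), and the chronic difference passed with library totals (adjusted p = 0.0395). Over all alternatives the adjusted p ran from 0.00177 to 0.220 for the chronic and from 0.00907 to 0.473 for the transition difference.

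ENSOARG00000013633 was at 9.11, 9.65 and 8.22 log2 CPM in right appendages of control sheep C1, S3 and S4, at 7.73, 7.23 and 5.58 in transition sheep D24, D27 and D30, and at 6.72, 6.86 and 6.69 in chronic sheep D15, D16 and D19. Chronic sheep were nearly identical, with an SD of 0.09 (n = 3), and transition sheep spread around them, with D30 the lowest. Its log2 difference from control was −2.15 in transition sheep (95% interval −3.28 to −1.01, limma adjusted p = 0.0842) and −2.24 in chronic sheep (95% interval −3.37 to −1.10, adjusted p = 0.0511). The chronic difference passed without D15 (−2.22, adjusted p = 0.0493) or without D30 (−2.24, adjusted p = 0.0321), and also with library totals (adjusted p = 0.0452), with log2(CPM + 1) (adjusted p = 0.0480) and with sample quality weights (adjusted p = 0.0433); over all alternatives its adjusted p ran from 0.0321 to 0.194.

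In the transition state 0 of the 4 genes passed in the right appendage by limma, where 0.154% of all genes were called lower. An unadjusted p under 0.05 was found for 3 of the 4 and for 1870 of the 12333 genes tested. Limma with voom weights called 0 of the 4, and 104 of all genes in either direction. Sample quality weights called 2 of the 4, and 700 of all genes in either direction. Chronic minus transition was −1.13 for ENSOARG00000007684 (95% interval −1.92 to −0.34, adjusted p = 0.736) and −1.24 for ENSOARG00000010539 (95% interval −1.92 to −0.56, adjusted p = 0.576). It was −0.15 for ENSOARG00000000476 (95% interval −0.92 to 0.62, adjusted p = 0.987) and −0.09 for ENSOARG00000013633 (95% interval −1.22 to 1.04, adjusted p = 0.995). By limma 0 of the 4 passed between the chronic and transition states, where 0% of all genes were called lower; 2 of the 4 and 747 of all genes had an unadjusted p under 0.05, and voom weights called 0 as well. With sample quality weights ENSOARG00000007684 (−1.46, adjusted p = 0.0232) and ENSOARG00000010539 (−1.50, adjusted p = 0.0173) passed, among 126 genes called in either direction.

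Left and right levels of a sheep were compared in whole tissue. Over the 9 sheep, left minus right averaged 0.54 ± 0.66 (SD) log2 units for ENSOARG00000013633, with the left higher in 8 sheep and a range from −0.70 to 1.53. The averages were 0.16 ± 0.61 for ENSOARG00000000476, −0.10 ± 0.42 for ENSOARG00000007684 and −0.29 ± 0.52 for ENSOARG00000010539, with the left higher in 5, 3 and 3 of the 9 sheep. Single sheep differed by up to 0.91 for ENSOARG00000000476, in C1, by up to −0.80 for ENSOARG00000007684 and by up to −1.01 for ENSOARG00000010539, in D24. These use the left samples and carry no test. How often the left was higher for all genes was not counted, so nothing is read from the counts of sheep.

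In isolated cardiomyocytes of the left appendage of chronic sheep 3 of the 4 genes, ENSOARG00000010539, ENSOARG00000000476 and ENSOARG00000013633, passed the test, where 3.8% of all genes were called lower. In transition sheep 1 of the 4, ENSOARG00000000476, passed, where 1.55% were called lower. ENSOARG00000007684 passed in neither. The median log2 difference of the 4 genes from control was −1.91 in chronic cardiomyocytes, against −0.01 for all genes tested. Control sheep C1, S3 and S4 serve both comparisons and were also the controls in whole tissue, while D20 and D23 gave no whole tissue samples. The share of all genes with groups that do not overlap was not counted in cardiomyocytes. Separations of states in the values below are therefore a description only.

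ENSOARG00000000476 was at 7.14, 7.16 and 6.83 log2 CPM in left appendage cardiomyocytes of control sheep C1, S3 and S4, at 5.99, 4.83 and 5.09 in transition sheep D23, D24 and D27, and at 4.40, 5.44 and 5.44 in chronic sheep D16, D19 and D20. Control sheep lay above all others with a narrow spread, and the transition and chronic sheep overlapped. It fell by 1.95 in chronic sheep relative to control (standard error 0.38, 95% interval −2.74 to −1.15, limma adjusted p = 0.00574) and by 1.74 in transition sheep (95% interval −2.54 to −0.95, adjusted p = 0.0202). The transition call was lost without any 1 of 5 sheep, at −1.69 without C1, −1.51 without D24, −1.63 without D27, −1.68 without S3 and −1.85 without S4, with adjusted p from 0.0635 to 0.0945, and over all alternatives from 0.00126 to 0.0945.

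ENSOARG00000010539 was at 5.62, 5.15 and 5.0 log2 CPM in left appendage cardiomyocytes of control sheep C1, S3 and S4, at 5.17, 4.87 and 4.65 in transition sheep D23, D24 and D27, and at 2.88, 2.84 and 3.54 in chronic sheep D16, D19 and D20. Chronic sheep stood apart below, and transition and control sheep overlapped. It fell by 2.17 in chronic sheep relative to control (standard error 0.35, 95% interval −2.91 to −1.43, limma adjusted p = 0.00207), 4.50-fold lower, and this call held in each alternative run. The transition difference was −0.36 (95% interval −1.10 to 0.38, adjusted p = 0.597).

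ENSOARG00000013633 was at 9.59, 9.38 and 8.49 log2 CPM in left appendage cardiomyocytes of control sheep C1, S3 and S4, at 7.54, 7.82 and 8.25 in transition sheep D23, D24 and D27, and at 7.69, 6.76 and 7.38 in chronic sheep D16, D19 and D20. Transition and chronic sheep lay below the lowest control sheep, S4, and overlapped with each other. It fell by 1.88 in chronic sheep relative to control (standard error 0.47, 95% interval −2.87 to −0.88, limma adjusted p = 0.0234), and the transition difference was −1.28 (95% interval −2.28 to −0.29, adjusted p = 0.139). The chronic call was lost without C1 (−1.66, adjusted p = 0.106), D19 (−1.62, adjusted p = 0.109) or S3 (−1.76, adjusted p = 0.0868), and its adjusted p over all alternatives ran from 0.00639 to 0.109.

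ENSOARG00000007684 was at 5.30, 6.22 and 6.55 log2 CPM in left appendage cardiomyocytes of control sheep C1, S3 and S4, at 5.61, 4.89 and 4.90 in transition sheep D23, D24 and D27, and at 3.64, 2.90 and 5.96 in chronic sheep D16, D19 and D20. Chronic sheep D20, which gave no whole tissue sample, lay within the control range, and control sheep C1 was the lowest control here as in every other region and material. The log2 difference from control was −1.86 in chronic sheep (standard error 0.56, 95% interval −3.04 to −0.68, limma adjusted p = 0.0519) and −0.89 in transition sheep (95% interval −2.08 to 0.29, adjusted p = 0.387). The chronic difference passed without D20 (−2.75, adjusted p = 0.00271) or without C1 (−2.22, adjusted p = 0.0477), and also with library totals (adjusted p = 0.0371), sample quality weights (adjusted p = 0.0165) and voom weights (adjusted p = 0.0498), with adjusted p from 0.00271 to 0.253 over all alternatives.

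Between the chronic and transition states of left appendage cardiomyocytes the log2 difference was −1.81 for ENSOARG00000010539 (95% interval −2.55 to −1.07, limma adjusted p = 0.249). It was −0.97 for ENSOARG00000007684 (95% interval −2.15 to 0.22), −0.59 for ENSOARG00000013633 (95% interval −1.59 to 0.40) and −0.21 for ENSOARG00000000476 (95% interval −1.0 to 0.59). By limma 0 of the 4 passed, with and without voom weights, where 0.00814% of all genes were called lower. The unadjusted p was under 0.05 for 1 of the 4 and for 865 of all genes.

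**Figure D2:**
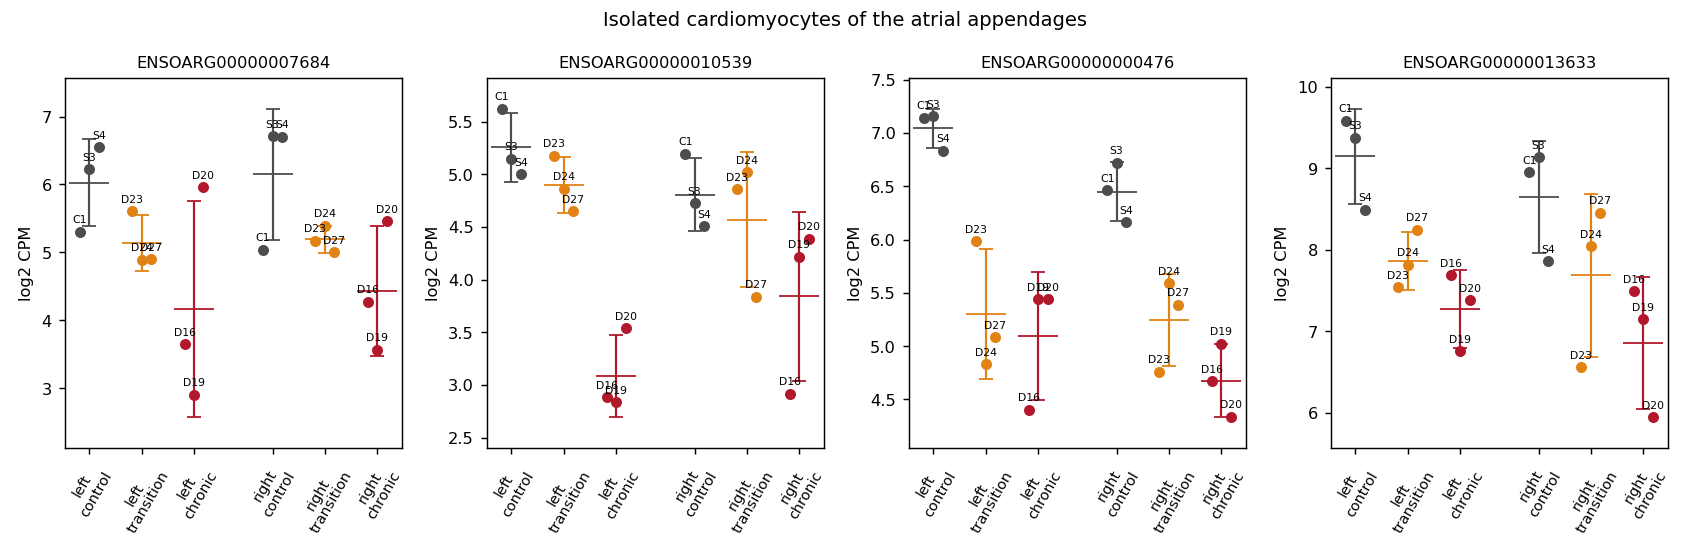
Isolated cardiomyocytes of the appendages, with the level of each gene in log2 CPM on the vertical axis and region and state on the horizontal axis; points are single sheep, named, and lines are the mean and SD of 3 sheep. Chronic sheep D20 lies at 5.96 and 5.46 for ENSOARG00000007684, well above D16 and D19. For ENSOARG00000000476 all transition and chronic points lie below all control points on both sides. The share of all genes separated in this way was not counted in cardiomyocytes.

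In right appendage cardiomyocytes 2 of the 4 genes, ENSOARG00000000476 and ENSOARG00000013633, passed in chronic sheep, where 3.36% of all genes were called lower. In transition sheep 0 of the 4 passed by limma, with and without voom weights, where 0.261% of all genes were called lower. The unadjusted p was under 0.05 for 1 of the 4 and for 1646 of all genes. The median log2 difference of the 4 genes from control was −1.74 in the chronic state and −0.96 in the transition state.

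ENSOARG00000000476 was at 6.46, 6.72 and 6.16 log2 CPM in right appendage cardiomyocytes of control sheep C1, S3 and S4, at 4.76, 5.59 and 5.39 in transition sheep D23, D24 and D27, and at 4.67, 5.02 and 4.34 in chronic sheep D16, D19 and D20. Control sheep lay above all others. It fell by 1.77 in chronic sheep relative to control (standard error 0.38, 95% interval −2.57 to −0.97, limma adjusted p = 0.0149), a call lost without D20 (−1.60, adjusted p = 0.0531) or S3 (−1.64, adjusted p = 0.0972), with adjusted p from 0.00196 to 0.0972 over all alternatives. The transition difference was −1.20 (95% interval −2.0 to −0.41, adjusted p = 0.163).

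ENSOARG00000013633 was at 8.96, 9.14 and 7.86 log2 CPM in right appendage cardiomyocytes of control sheep C1, S3 and S4, at 6.56, 8.05 and 8.46 in transition sheep D23, D24 and D27, and at 7.49, 7.15 and 5.95 in chronic sheep D16, D19 and D20. Chronic sheep lay below all controls, and transition sheep overlapped with control sheep S4. It fell by 1.79 in chronic sheep relative to control (standard error 0.47, 95% interval −2.79 to −0.79, limma adjusted p = 0.0365), and the transition difference was −0.96 (95% interval −1.96 to 0.03, adjusted p = 0.393). The chronic call was lost with the right appendage fitted on its own (adjusted p = 0.116) and without C1 (−1.64, adjusted p = 0.119), D19 (−1.93, adjusted p = 0.0803), D20 (−1.33, adjusted p = 0.133), D24 (−1.79, adjusted p = 0.0521) or S3 (−1.55, adjusted p = 0.205), and over all alternatives its adjusted p ran from 0.0166 to 0.205.

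ENSOARG00000007684 was at 5.03, 6.71 and 6.70 log2 CPM in right appendage cardiomyocytes of control sheep C1, S3 and S4, at 5.17, 5.39 and 5.0 in transition sheep D23, D24 and D27, and at 4.27, 3.57 and 5.46 in chronic sheep D16, D19 and D20. C1 and D20 stood on the far side of their groups again, so that chronic and control sheep overlapped. The log2 difference from control was −1.72 in chronic sheep (95% interval −2.90 to −0.53, limma adjusted p = 0.0839) and −0.96 in transition sheep (95% interval −2.14 to 0.22, adjusted p = 0.491). The chronic difference passed without C1 (−2.28, adjusted p = 0.0497) or D20 (−2.23, adjusted p = 0.0159), with adjusted p from 0.0159 to 0.330 over all alternatives.

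ENSOARG00000010539 was at 5.19, 4.73 and 4.51 log2 CPM in right appendage cardiomyocytes of control sheep C1, S3 and S4, at 4.86, 5.02 and 3.84 in transition sheep D23, D24 and D27, and at 2.92, 4.22 and 4.39 in chronic sheep D16, D19 and D20. Chronic sheep lay below control sheep, D20 narrowly, and overlapped with transition sheep D27. The log2 difference from control was −0.97 in chronic sheep (95% interval −1.71 to −0.22, limma adjusted p = 0.120) and −0.24 in transition sheep (95% interval −0.98 to 0.51, adjusted p = 0.825).

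Chronic minus transition in right appendage cardiomyocytes was between −0.83 and −0.57 for the 4 genes, with adjusted p from 0.558 to 0.670. By limma 0 of the 4 passed, with and without voom weights, where 0.00814% of all genes were called lower. The unadjusted p was under 0.05 for 0 of the 4 and for 1098 of all genes.

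The cardiomyocyte decreases of both sides were set against each other within the same sheep. For ENSOARG00000010539 the chronic decrease was larger on the left, by −1.20 on the log2 scale (standard error 0.36, 95% interval −1.97 to −0.44), and this difference of differences had an adjusted p of 0.149 by limma. Left minus right for this gene was −0.03, −1.38 and −0.85 in chronic sheep D16, D19 and D20, against 0.43, 0.42 and 0.49 in control sheep C1, S3 and S4. Every chronic sheep was below 0, D16 only just, and every control sheep above it. How many of all genes separate in this way was not counted, so nothing is read from it. For the other genes the difference of the chronic decreases was between −0.18 and −0.09, with adjusted p from 0.868 to 0.951. By limma 0 of the 4 passed for the chronic state, with and without voom weights, where 0.358% of all genes were called in either direction. The unadjusted p was under 0.05 for 1 of the 4 and for 1749 of all genes.

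For the transition state the left minus right difference of the decreases was 0.07 for ENSOARG00000007684, −0.12 for ENSOARG00000010539, −0.54 for ENSOARG00000000476 and −0.32 for ENSOARG00000013633. By limma 0 of the 4 passed, with and without voom weights, and 0 had an unadjusted p under 0.05, where 0% of all genes were called in either direction and 781 genes had an unadjusted p under 0.05. The interval was widest for ENSOARG00000007684, from −1.15 to 1.29.

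Over all states, the left and right cardiomyocytes of the 9 sheep differed by 0.37 (95% interval −0.05 to 0.78, limma adjusted p = 0.198) for ENSOARG00000013633, by 0.36 (95% interval 0.02 to 0.69, adjusted p = 0.116) for ENSOARG00000000476, by 0.01 (95% interval −0.31 to 0.32, adjusted p = 0.983) for ENSOARG00000010539 and by −0.15 (95% interval −0.65 to 0.35, adjusted p = 0.696) for ENSOARG00000007684. By limma 0 of the 4 passed, with and without voom weights, where 23% of all genes were called in either direction. The unadjusted p was under 0.05 for 1 of the 4 and for 4362 of all genes. Without sheep D24 the difference of ENSOARG00000000476 passed, at 0.49 (adjusted p = 0.0374), with adjusted p from 0.0374 to 0.411 over all alternatives.

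Whole tissue and cardiomyocytes of the same sheep and region could be paired in 14 cases from 7 sheep. The tables were normalised separately, so the following is a description with no test. Tissue minus cardiomyocytes had a median of 0.81 log2 units for ENSOARG00000010539, with tissue higher in 14 of 14 pairs, and a range from 0.16 to 1.44. It was −0.41 for ENSOARG00000000476, with tissue higher in 1 pair, −0.22 for ENSOARG00000007684, with tissue higher in 3, and 0.08 for ENSOARG00000013633, with tissue higher in 7. The share of all genes with tissue higher in every pair was not counted, so nothing is read from these counts. Over all 12667 genes in both tables the median was 0.35, with the 5th to 95th percentiles at −0.70 and 1.26, so all 4 genes lay within the bulk of genes.

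The posterior left atrium held the largest groups and 7 sheep that gave no appendage sample. In transition sheep 2 of the 4 genes, ENSOARG00000000476 and ENSOARG00000013633, were lower at an adjusted p under 0.05, where 8.68% of all genes were called lower. The median log2 difference of the 4 genes was −0.77, against −0.01 for all genes tested.

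ENSOARG00000000476 was at 5.22, 4.98, 5.41, 5.11, 4.73 and 5.09 on the deposited log2 scale in transition sheep D24, D27, G13, G26, G34 and G5, against 6.09, 6.40, 6.15, 7.06, 6.24 and 5.85 in control sheep C1, G21, G32, G36, S3 and S4. Every transition sheep lay below every control sheep. The share of all genes separated in this way was not counted in this region, so nothing is read from the separation. It averaged 5.09 ± 0.23 in transition sheep and 6.30 ± 0.41 in control sheep (SD, n = 6 each), and fell by 1.25 (standard error 0.17, 95% interval −1.61 to −0.89, limma adjusted p = 0.000355), 2.38-fold lower. In the sheep with G numbers alone, 4 transition and 3 control animals not used in choosing the gene, it fell by 1.45 (standard error 0.22, limma adjusted p = 0.00463). In the other sheep, 2 transition and 3 control animals, it fell by 0.96 (adjusted p = 0.0376), and over all alternatives its adjusted p ran from 0.000190 to 0.0376.

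ENSOARG00000013633 was at 8.54, 8.63, 9.31, 9.01, 8.09 and 8.54 in transition sheep D24, D27, G13, G26, G34 and G5, against 9.77, 9.62, 9.77, 9.54, 9.58 and 8.98 in control sheep C1, G21, G32, G36, S3 and S4. Control sheep S4 stood below the other control sheep, and transition sheep G13 and G26 lay above it. It fell by 0.89 (standard error 0.18, 95% interval −1.29 to −0.49, limma adjusted p = 0.00516), 1.85-fold lower. Within the sheep with G numbers the difference was −0.91 (adjusted p = 0.0542) and within the other sheep −0.86 (adjusted p = 0.0897), so that neither set on its own passed; over all alternatives the adjusted p ran from 0.00204 to 0.0897.

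ENSOARG00000007684 was at 4.22, 4.54, 2.16, 4.49, 4.18 and 5.17 in transition sheep D24, D27, G13, G26, G34 and G5, against 3.13, 4.32, 4.46, 6.11, 5.09 and 5.46 in control sheep C1, G21, G32, G36, S3 and S4. The groups overlapped widely, with C1 once more the lowest control sheep. The log2 difference was −0.64 (standard error 0.52, 95% interval −1.76 to 0.47, limma adjusted p = 0.436). It was −0.96 within the sheep with G numbers and −0.18 within the others.

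ENSOARG00000010539 was at 5.31, 4.45, 5.05, 3.60, 5.35 and 4.84 in transition sheep D24, D27, G13, G26, G34 and G5, against 5.02, 5.68, 4.70, 4.88, 4.74 and 5.50 in control sheep C1, G21, G32, G36, S3 and S4. The groups overlapped, and transition sheep G26 was the lowest animal. The log2 difference was −0.31 (standard error 0.28, 95% interval −0.91 to 0.30, limma adjusted p = 0.499), −0.38 within the sheep with G numbers and −0.21 within the others. Its transition difference was also the smallest in size of the 4 genes in right appendage tissue and in cardiomyocytes of both appendages. Left appendage tissue, by which the genes were chosen, is left out of this statement. ENSOARG00000010539 was chosen on its chronic difference, and ENSOARG00000000476 and ENSOARG00000013633 on their transition difference. Many of the samples come from the sheep of that choice, so nothing is read from this order.

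**Figure D3:**
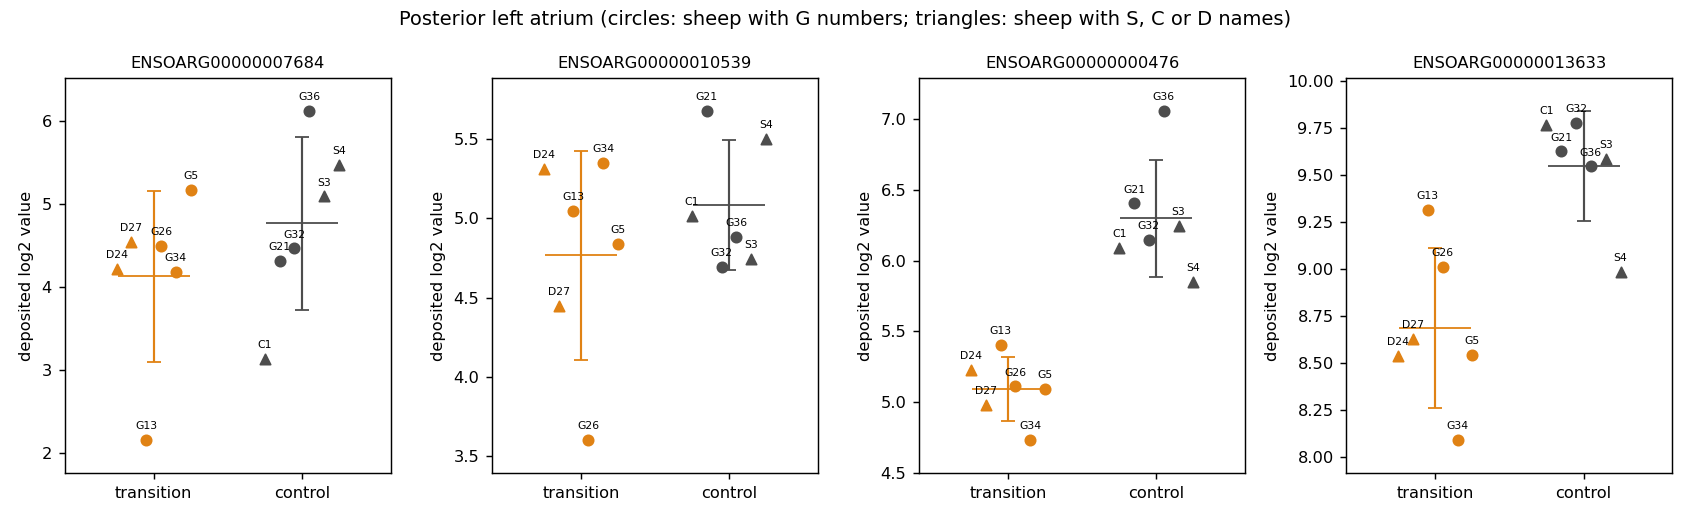
Posterior left atrium, with the deposited log2 value of each gene on the vertical axis and state on the horizontal axis; circles are sheep with G numbers, triangles the other sheep, and lines the mean and SD of 6 sheep. For ENSOARG00000000476 the transition sheep sit between 4.73 and 5.41, all below the control sheep, between 5.85 and 7.06. How many of all genes separate in this way was not counted.

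**Figure D4:**
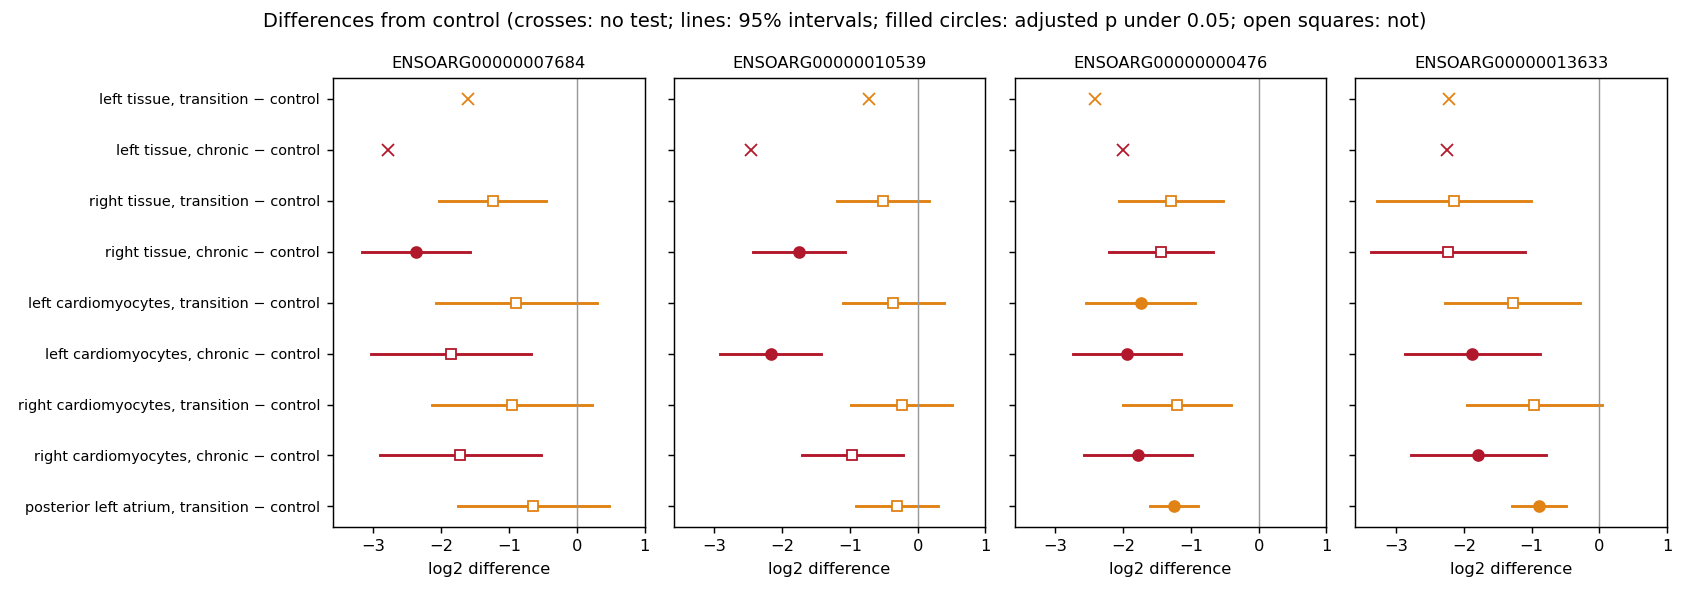
Fitted log2 differences from control of each gene on the horizontal axis, by region, material and state down the page. Crosses are left appendage tissue, by which the genes were chosen and which has no test; lines are 95% intervals, filled circles an adjusted p under 0.05 and open squares a larger one. All plotted differences are below 0. Outside left appendage tissue, the transition difference of ENSOARG00000010539 is the smallest in size of the 4 genes in each region and material, from −0.51 to −0.24. This gene was chosen on its chronic difference, and many of the samples come from the sheep of the choice, so nothing is read from this order.

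For each gene the 2 genes with the most similar course over the 18 whole tissue samples were found by Pearson correlation. This is a description over points that share states, sheep and libraries. As these genes were picked for the highest r in whole tissue, a lower r elsewhere can follow from that choice. ENSOARG00000000476 was followed by ENSOARG00000001346 (r = 0.94) and ENSOARG00000021060 (r = 0.94), and the likeness was similar over the 18 cardiomyocyte samples (r = 0.89 and 0.91) and the 12 posterior left atrium samples (r = 0.78 and 0.82). ENSOARG00000010539 was followed by ENSOARG00000014922 (r = 0.95) and ENSOARG00000004836 (r = 0.94), with r = 0.86 and 0.82 in cardiomyocytes and 0.29 and 0.20 in the posterior left atrium. ENSOARG00000007684 was followed by ENSOARG00000006684 (r = 0.91) and ENSOARG00000015250 (r = 0.89), with r = 0.61 and 0.56 in cardiomyocytes and 0.19 and 0.13 in the posterior left atrium. ENSOARG00000013633 was followed by ENSOARG00000001792 (r = 0.86) and ENSOARG00000010457 (r = 0.85), with r = −0.13 and 0.06 in cardiomyocytes and 0.86 and 0.14 in the posterior left atrium.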

How the data were processed

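The deposited values are log2 expression values per gene, 1 column per sheep and region, in a table each for whole tissue, cardiomyocytes and posterior left atrium. Tools named in the submitters' processing notes are limma, RSEM, cutadapt and bcl2fastq, with no order or role. Not given in the sources used here are the aligner, the build and the annotation. For the appendages 100% of values equalled the log2 of whole reads plus 0.5 per scaled library (within 0.05 reads; scaling 0.828 to 1.14). In the posterior left atrium at most 10.3% did so, and the depth is unknown. For the set of sheep 17.7% of genes had a limma p over 0.9 and 0.465% a p under 0.1. These are more high and fewer low p-values than an even spread would give. Whether a difference between sets had been removed before deposit is not recorded and was not tested. The p-values given for this region take no account of such a step. The lowest chi-square per degree of freedom between libraries of an appendage group was 10.5.

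Genes with a mean log2 value below 0 were left out, which kept 12333, 12279 and 12035 genes. With a mean-variance trend and no further pseudocount, limma 3.58.1 (run in R 4.3.3) fitted the 6 group means of each appendage table with the sheep as a random effect. Samples were paired by sheep, as named in the labels; the consensus correlation of samples of a sheep was 0.294 in whole tissue and 0.470 in cardiomyocytes. For the posterior left atrium the terms were state and set of sheep. Adjustment was by Benjamini-Hochberg across every gene of the same table, and an adjusted p under 0.05 passed. Intervals are 95% intervals of the limma fit. Of the 13803 identifiers 0 matched a gene symbol in the reference given, so lists of cell type markers and pathways could not be used. The 4 genes, the lists and the tests were chosen with earlier results of these data known. Beside the 4 genes the naming rule took, for each, the 2 genes of highest Pearson correlation in whole tissue. The tests of the difference between left and right decreases in cardiomyocytes were added after the values were seen. The sources used here do not say whether counting used strand or how reads of near-identical or overlapping genes were shared. Count models were not run, as the deposited unit is log2; voom weights on recovered reads were an alternative.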

Additional observations from a re-analysis of the deposited data

Results flagged for a closer look

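Of the 8 posterior left atrium groups of 6 sheep, a group for each gene and state, 2 held a sheep far from the others, where the gap to the nearest sheep divided by the range of the group exceeded Dixon's 95% critical value. Chance gives this in about 1 in 20 groups. ENSOARG00000007684 was at 2.16 in transition sheep G13, with the other transition sheep between 4.18 and 5.17, a gap of 0.671 of the range. ENSOARG00000013633 was at 8.98 in control sheep S4, with the other control sheep between 9.54 and 9.77, a gap of 0.707 of the range.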

How the results depend on the processing

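Over the 44 tested results of the 4 genes, 756 alternative values were computed, of which 698 kept direction and side of the threshold, 21 lost a call, 21 gained one and 16 changed sign; of the 688 differences between states 678 were below 0. The 204 alternative values of the left tissue differences moved by less than 1 SD. The 16 changes of sign were all of differences that had not passed. With sample quality weights the right tissue transition difference of ENSOARG00000010539 was 0.0099 and its right cardiomyocyte transition difference 0.015. Its left against right cardiomyocyte difference was −0.077 with library totals, −0.014 with median-of-ratios rescaling and −0.074 with quality weights. Leaving out 1 sheep at a time gave, for ENSOARG00000010539, −0.46 to 0.13 in right cardiomyocytes, transition against control, and −0.11 to 0.11 for cardiomyocytes, left against right. For chronic against transition it gave −0.68 to 0.19 in right tissue and −0.44 to 0.14 in left cardiomyocytes for ENSOARG00000000476, and −0.72 to 0.35 in right tissue for ENSOARG00000013633. The tests of left minus right decreases in cardiomyocytes, and their 128 alternative values, were chosen after seeing the data; 0 of these values passed and 10 changed sign. For the transition state ENSOARG00000007684 gave −0.15 with quality weights, and with 1 sheep left out −0.18 to 0.29, against −0.37 to 0.11 for ENSOARG00000010539. For the chronic state, with 1 sheep left out, the range was −0.52 to 0.061 for ENSOARG00000007684, −0.52 to 0.17 for ENSOARG00000000476, −0.60 to 0.32 for ENSOARG00000013633 and −1.57 to −0.89 for ENSOARG00000010539. The count of all genes past the threshold ranged from 1 to 168 for the chronic state (44) and from 0 to 3 for the transition state (0).

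The number of the 4 genes past the threshold in right tissue became 4 with library totals, 4 with quality weights, 3 with log2(CPM + 1) and 1 with the appendage fitted alone for chronic against control, and 2 with quality weights for transition against control and for chronic against transition. It was 1 in right cardiomyocytes, chronic against control, with the appendage fitted alone, and 1 in the posterior left atrium with either set of sheep alone. Leaving out 1 sheep at a time gave 1 to 4 in right tissue, chronic against control, 0 to 1 in right tissue, transition against control, 2 to 4 in left cardiomyocytes, chronic against control (3 as reported, and 4 with library totals, quality weights or voom weights), 0 to 1 in left cardiomyocytes, transition against control, 0 to 2 in right cardiomyocytes, chronic against control, and 0 to 1 for left against right cardiomyocytes. The cause was not tested. Over all alternatives, the count of all genes past the threshold for chronic against control ranged from 36 to 774 in right tissue (155 as reported), from 320 to 1791 in left cardiomyocytes (938) and from 99 to 930 in right cardiomyocytes (633). For transition against control it ranged from 14 to 700 in right tissue (77), from 90 to 1306 in left cardiomyocytes (418), from 9 to 409 in right cardiomyocytes (80) and from 243 to 2548 in the posterior left atrium (2109). For chronic against transition it ranged from 0 to 126 in right tissue (0), from 1 to 15 in left cardiomyocytes (1) and from 1 to 90 in right cardiomyocytes (1). Library totals moved the median of all genes by −0.12 in chronic left cardiomyocytes and by −0.14 in left tissue, chronic against transition.

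With no replicate block, that is with the pairing of samples by sheep left out of the model, no call of the 4 genes changed. The genes called between left and right cardiomyocytes numbered 773 with no replicate block and 2803 with the sheep as a fixed block, against 2826 with the sheep as a random effect. With 3 sheep per appendage group, a difference that did not pass is not shown to be absent.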
